A study of Mus musculus with 8 samples.

Results

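Livers of male FVB/N mice aged 3 months were compared between Abcb4 knockouts (KO) given norUDCA, a bile acid with a modified side chain, for 3 days and wild type (WT) mice that received none. Each group had 2 arrays, so the comparison used 4 of the 8 arrays of the series. The arrays were chosen by their titles. The other 4 arrays came from untreated KO livers and from KO livers after 4 weeks of norUDCA, with the same strain, sex and age. Total RNA was read on single-colour Applied Biosystems arrays by chemiluminescence. The 2 groups differ in genotype and in treatment, so their difference alone cannot tell knockout and norUDCA apart. For this reason the untreated KO level is given beside each named gene that rose or fell, and beside some of the others.

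Abcb4 encodes the canalicular transporter that carries phosphatidylcholine into bile. Without it, bile acids lack the phospholipid that shields the bile duct epithelium, and the mice develop sclerosing cholangitis with a ductular reaction, in which small ducts multiply around the portal tract. norUDCA is a shortened relative of ursodeoxycholic acid that is poorly conjugated and returns from bile to the hepatocyte.

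Of 33012 gene probes, 4153 carried a quality flag of 5000 or more on one of the 8 arrays and were left out. A probe counted as detected on an array where its signal over noise was 3 or more. The 16728 probes detected on at least 2 of the 8 arrays were tested. Described here are the 13159 of these that were detected on both WT or both 3-day arrays. Gene names came from RefSeq accessions or, for 5 probes of the array, from a synonym in the RefSeq gene table, which gave 132 named probes of 131 genes among them. No named probe stood for Abcb4, so the genotype was not checked on its own transcript. The tissue label was checked on Mup1, a major urinary protein made by hepatocytes, whose log2 signal ran from 19.79 to 20.68 over all 8 arrays.

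The 3-day and WT arrays also differed in the array itself. Gene probes were detected at 33.32% and 41.41% on the WT arrays and at 47.85% and 42.64% on the 3-day arrays. The positive control spots had a median signal of 1691 and 2062 on the WT arrays and of 6634 and 6104 on the 3-day arrays. The hybridization control spots did not show such a gap, with 116129 and 137670 on the WT arrays against 139470 and 135354. Nor did the spots of the first reverse transcription control, at 8577 and 12090 against 11707 and 10880. The part of the positive control gap in the gene results was not tested. Replicates differed by a median of 0.32 log2 units per probe in WT and 0.24 after 3 days. The labels do not state whether the 2 arrays of a group came from different mice, and the p-values can only reflect the array-to-array spread, part of which may be technical.

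**Figure D1:**
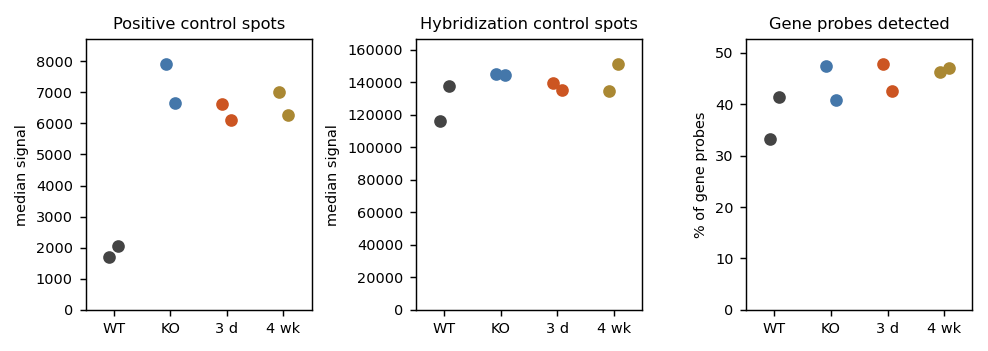
Median signal of the positive control spots, median signal of the hybridization control spots, and the percentage of gene probes detected, one point per array in each of the 4 groups (3 d and 4 wk are KO livers after norUDCA). The 2 WT arrays lie at 1691 and 2062 for the positive controls, below the other 6 arrays, while the hybridization controls overlap between WT and 3-day arrays.

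Among the probes described, 550 rose and 339 fell after 3 days relative to WT (limma, adjusted p under 0.05). Over all 16728 tested probes, 599 rose (3.58%) and 368 fell (2.20%), together 5.78%. Probes that rose had a median difference of 2.08 log2 units, and those that fell one of -1.72. Most differences were small: the lower and upper quartiles over the 13159 probes were -0.34 and 0.66. A difference beyond 8-fold was reached upward by 149 probes and downward by 70, of which 108 and 57 passed the threshold. Among the 9621 probes seen on all 4 arrays, 21 lay beyond 8-fold upward and 32 downward, whether they passed or not.

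The direction of the calls went with where a probe was detected. Among the 9621 probes seen on all 4 arrays, 232 rose and 270 fell. Of the 1096 probes detected on both 3-day arrays and neither WT array, 234 rose, and of the 110 detected on both WT arrays and neither 3-day array, 37 fell. Their direction is fixed by how these 2 classes were formed, so it adds nothing to the calls. With the probes cut into 3 equal parts by mean signal, 290 rose and 113 fell in the dimmest part, and 152 rose and 134 fell in the brightest.

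**Figure D2:**
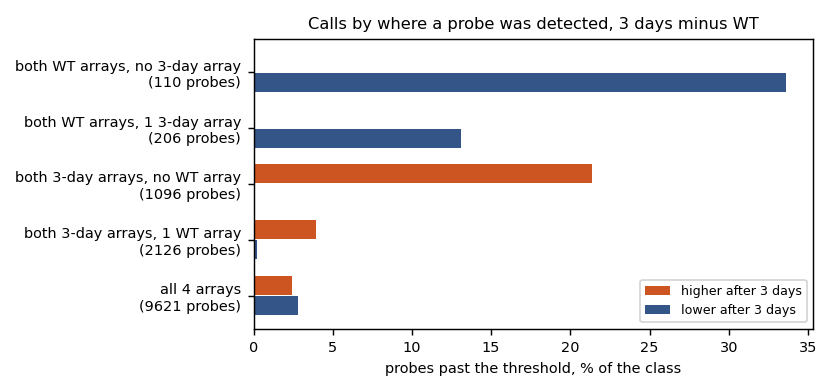
Percentage of probes that rose (orange) or fell (blue) after 3 days relative to WT, for 5 classes of probes by the arrays that detected them. Calls in both directions are near each other only for the 9621 probes seen on all 4 arrays, where 232 rose and 270 fell.

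These counts depended on the spread lent by the other groups, on single arrays and on the scale. With only the 2 compared groups fitted, 0 probes rose and 0 fell, with 3474 at an unadjusted p under 0.05. Without WT replicate 1, 321 probes rose and 111 fell, and without WT replicate 2 these were 1342 and 468. Without either 3-day array, when the lone one is assumed to vary like the other groups, 3 rose and 0 fell, with 3305 and 2945 probes at an unadjusted p under 0.05. Leaving out a 4-week array, which lends its spread and enters the filters and the normalization, gave fewer calls in both directions. With arrays scaled to a common median, 1042 rose and 190 fell, and the median of all tested probes moved to 0.50. Scaled to the reverse transcription control spots, 4528 rose and 200 fell around a median of 0.84.

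Of the 132 named probes, 5 rose and 3 fell, or 6.06%. The share past the threshold was 6.76% over the 13159 probes described and 5.78% over all tested probes. Dio1, Hsd3b4 and Fgf21 fell, and Tcte3, Pdxp, Plin3, Krt23 and Wfdc2 rose. A difference under 1 log2 unit was seen at 98 of the 132. Each of these 8 genes had the same direction in every alternative in which it was tested, the control spot scaling included. Tcte3, Pdxp, Krt23 and Wfdc2 were detected on both 3-day arrays and neither WT array. Their direction is thus fixed by their class, and keeping it adds nothing. Of the 8, only Dio1 and Plin3 were tested when detection on all 8 arrays was required.

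**Figure D3:**
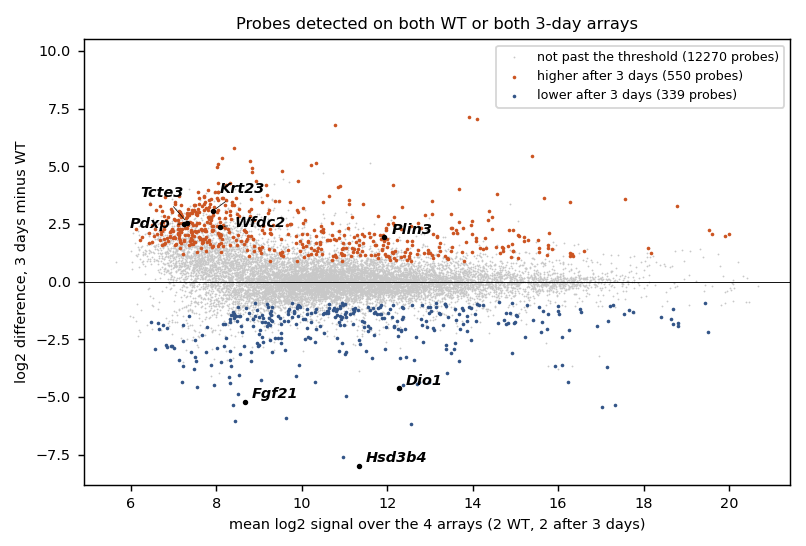
Log2 difference between 3-day and WT arrays (vertical) against the mean log2 signal of the 4 arrays (horizontal), one point per probe for the 13159 probes described, with the 8 named genes past the threshold marked. Tcte3, Pdxp, Krt23 and Wfdc2 lie among the dim probes, and Dio1, Hsd3b4 and Fgf21 fall below most probes of like signal.

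Dio1 kept its call in 18 of 21 alternatives, and Tcte3 and Pdxp each in 17 of the 20 that tested them. In the remaining one, which required detection on all 8 arrays, Tcte3 and Pdxp were not tested. Among the bile duct markers, Krt23 had the largest difference. The promoter windows of these 4 genes, from RefSeq on build GRCm38.p6, are shown so that genes moving in opposite directions can be set side by side. Each window runs from 250 bases before the transcription start to 50 after it, 5′ to 3′ on the gene's strand. Capitals mark matches on either strand to 5 motifs. They were TATAAA as the TATA box and CCAAT as the box of that name. AGGTCA stood for the nuclear receptor half-site, TGANTCA for AP-1 and TTGCNNAA for C/EBP.
Dio1: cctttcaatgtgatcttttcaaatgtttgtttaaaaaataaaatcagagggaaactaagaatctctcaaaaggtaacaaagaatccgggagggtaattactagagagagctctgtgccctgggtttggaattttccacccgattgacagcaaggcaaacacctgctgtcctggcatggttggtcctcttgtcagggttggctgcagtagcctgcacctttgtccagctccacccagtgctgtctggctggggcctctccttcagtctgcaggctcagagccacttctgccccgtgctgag
Tcte3: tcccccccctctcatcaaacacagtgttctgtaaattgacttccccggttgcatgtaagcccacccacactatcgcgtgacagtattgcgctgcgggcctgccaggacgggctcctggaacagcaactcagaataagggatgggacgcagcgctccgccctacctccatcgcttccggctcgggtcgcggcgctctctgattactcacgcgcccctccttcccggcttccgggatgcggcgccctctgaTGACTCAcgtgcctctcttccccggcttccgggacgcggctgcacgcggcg
Pdxp: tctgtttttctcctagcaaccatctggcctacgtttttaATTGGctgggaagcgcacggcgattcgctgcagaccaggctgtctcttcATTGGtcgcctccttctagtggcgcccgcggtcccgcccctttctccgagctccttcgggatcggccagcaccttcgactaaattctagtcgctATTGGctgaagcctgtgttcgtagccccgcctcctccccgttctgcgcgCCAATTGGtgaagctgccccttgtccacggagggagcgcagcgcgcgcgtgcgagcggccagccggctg
Krt23: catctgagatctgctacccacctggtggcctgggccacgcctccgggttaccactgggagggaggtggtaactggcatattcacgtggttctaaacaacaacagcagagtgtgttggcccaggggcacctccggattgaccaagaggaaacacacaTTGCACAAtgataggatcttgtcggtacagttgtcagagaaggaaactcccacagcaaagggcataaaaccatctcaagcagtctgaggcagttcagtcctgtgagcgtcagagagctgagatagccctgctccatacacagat

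The windows lie at chr4:107307119-107307418 (minus strand, Dio1), chr17:15041510-15041809 (minus, Tcte3), chr15:78913669-78913968 (plus, Pdxp) and chr11:99493071-99493370 (minus, Krt23). The Dio1 window held none of the 5 motifs and was 49.7% G and C. The Tcte3 window held 1 AP-1 match. The Pdxp window held 5 CCAAT box matches, 4 of them on the opposite strand as ATTGG and the last 2 overlapping each other. The Krt23 window held 1 C/EBP match. Over the 8 genes that passed, each with its first listed window, a CCAAT box was found in 3 windows and each of the other motifs in 1. Over all 32851 RefSeq windows, 37.4% held a CCAAT box, 13.6% a TATA box, 16.3% a nuclear receptor half-site, 7.8% an AP-1 match and 10.8% a C/EBP match. A match describes letters only and is no evidence of a bound site.

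Dio1, the deiodinase that activates thyroid hormone in the liver, had the lowest adjusted p of the named genes. Its log2 signal was 14.35 and 14.81 on the WT arrays and 10.03 and 9.87 on the 3-day arrays. The groups were far apart, with every array detecting the probe. The difference was -4.63 ± 0.29 log2 units (SE), or 24.8-fold, with an adjusted p of 0.0063 (limma). Untreated KO arrays lay between at 12.13 and 12.75, and the 4-week arrays at 9.84 and 9.93 were level with the 3-day arrays. Against untreated KO the 3-day difference was -2.49 ± 0.29 (SE), which missed the threshold (adjusted p = 0.053, limma). Without 3-day replicate 1 or 2 the adjusted p against WT was 0.055 or 0.053.

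Hsd3b4, a member of the 3-beta-hydroxysteroid dehydrogenase family of steroid enzymes, had the lowest log2 difference of all probes described. Its log2 signal was 15.54 and 15.11 on the WT arrays and 6.01 and 8.67 on the 3-day arrays, of which 1 of 2 detected it. The groups did not overlap, but the 3-day arrays were themselves far apart. The difference was -7.99 ± 1.20 (SE), with an adjusted p of 0.027 (limma). With 1 of the 2 3-day spots undetected, the size of this difference and its rank are uncertain. Untreated KO stood at 14.28 and 11.23, and neither 4-week array detected the probe. The Hsd3b genes are near-identical in sequence, and the files do not say which of them this probe reads.

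Fgf21, a hormone that hepatocytes release in fasting, stood at 12.58 and 9.98 on the WT arrays and at 6.98 and 5.14 on the 3-day arrays, 1 of which detected it. Neither untreated KO array detected it, at 5.96 and 6.45. The 3-day difference from WT was -5.22 ± 0.96 (SE, adjusted p = 0.040, limma). Its size is uncertain, as the 3-day spot at 5.14 lay below the lowest detected signal of its array, 5.92. The SE pools the spread of all 4 groups, and a fit on the compared groups alone gave an adjusted p of 0.15 (limma). The WT arrays were far apart from each other, and the difference from untreated KO was -0.15 ± 0.96 (SE). The level after 3 days was therefore not told apart from that of the untreated knockout.

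Plin3, a protein that coats lipid droplets, was at 11.12 and 10.82 on the WT arrays and at 12.93 and 12.85 after 3 days. The groups did not overlap, and the replicates of each were close. It rose by 1.92 ± 0.31 log2 units (SE), or 3.78-fold (adjusted p = 0.032, limma). Untreated KO was at 12.76 and 11.90, and the 3-day difference from it was 0.57 ± 0.31 (SE, adjusted p = 0.44, limma). After 4 weeks the level was 13.22 and 13.16.

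Pdxp, the phosphatase that removes phosphate from pyridoxal phosphate, the active form of vitamin B6, was detected on neither WT nor untreated KO arrays. It was read at 8.27 and 8.71 on the 3-day arrays against 6.28 and 5.71 on the WT arrays. The fitted difference was 2.49 ± 0.29 log2 units (SE, adjusted p = 0.017, limma). As the WT spots were not well above background, a floored fold was also taken, which was 4.84. It sets the bright mean against the higher of each dim spot and the lowest detected signal of its array. It leaves out the noise of the dim spots, so it is not a lower limit. Untreated KO was at 6.34 and 6.23, and the 3-day difference from it was 2.20 ± 0.29 (SE, adjusted p = 0.061, limma).

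Tcte3, a dynein light chain gene known from the testis, gave a like pattern. It was undetected on the WT arrays (6.24 and 5.84) and on the untreated KO arrays (6.84 and 6.72), and detected on both 3-day arrays at 8.62 and 8.58. The fitted difference from WT was 2.56 ± 0.26 log2 units (SE, adjusted p = 0.014, limma), with a floored fold of 5.32. Both 4-week arrays detected it as well, at 8.39 and 7.88. Against untreated KO the difference was 1.82 ± 0.26 (SE, adjusted p = 0.066, limma). Of 38 named sensory receptor probes left after the flag filter, 34 were detected on none of the 4 arrays. Those that met the detection rule were Olfr982, at 10.24 and 10.42 in WT and 10.47 and 10.20 after 3 days, and Vmn1r218, at 6.76 and 7.57 on the WT arrays, neither of which detected it, and 7.24 and 8.34 on the 3-day arrays, both of which did. It was also detected on 1 untreated KO array and both 4-week arrays.

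Both named genes of the cholangiocyte list rose, beside 3.58% of all tested probes. The list was written with earlier results of these data known, and neither gene was detected on a WT array. Krt23, a keratin of reactive bile duct cells, was undetected on the WT arrays at 6.67 and 6.10 and stood at 10.23 and 8.67 after 3 days. Its fitted difference was 3.06 ± 0.55 log2 units (SE, adjusted p = 0.038, limma), with a floored fold of 8.26. Wfdc2, a secreted epithelial protein with a whey acidic protein core, was undetected on the WT arrays at 6.88 and 6.93 and read 9.79 and 8.78 after 3 days. Its fitted difference was 2.38 ± 0.44 (SE, adjusted p = 0.041, limma), with a floored fold of 5.21, the same as the fitted one. Both genes were already high in untreated KO, Krt23 at 10.53 and 11.01 and Wfdc2 at 9.20 and 10.19. Against untreated KO, Krt23 differed by -1.32 ± 0.55 (SE, adjusted p = 0.32, limma) and Wfdc2 by -0.41 ± 0.44 (adjusted p = 0.71). After 4 weeks Krt23 was at 7.76 and 7.29, whereas Wfdc2 was at 10.40 and 10.35. In whole liver RNA, more cells of a type and more RNA per cell cannot be told apart. The other 17 genes of the list, Krt7 and Krt19 among them, were not analysed here.

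**Figure D4:**
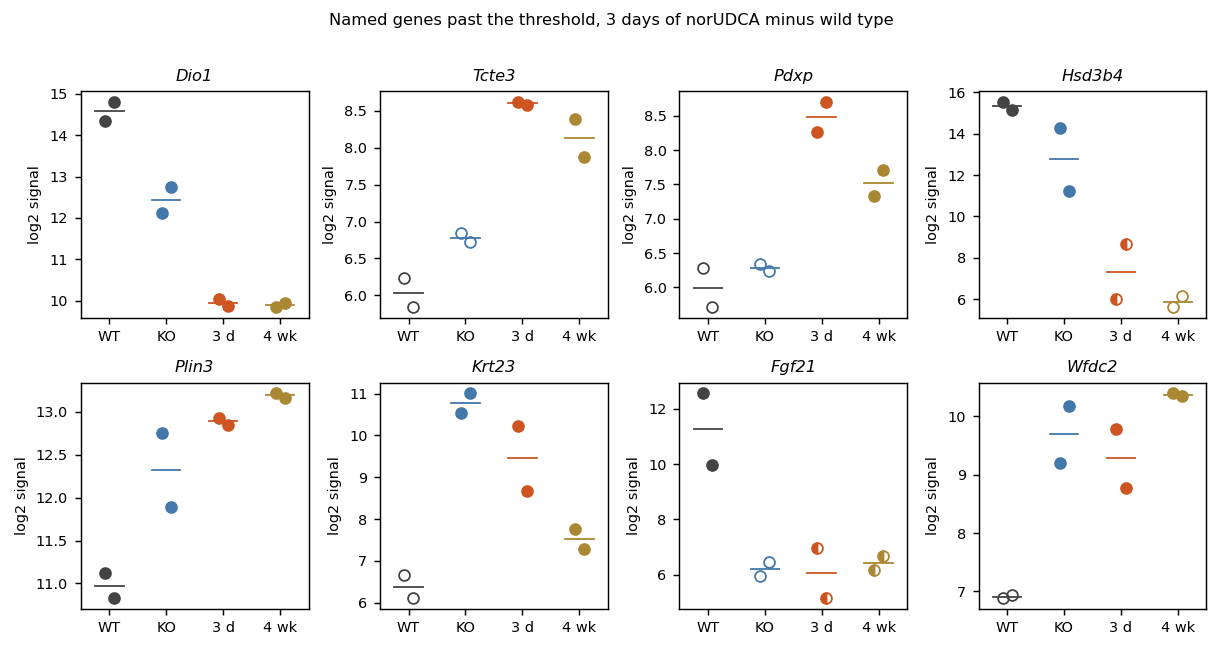
Log2 signal of the 8 named genes past the threshold, one point per array in the 4 groups, with a bar at each group mean. Filled points mark groups detected on both arrays, left-filled points groups detected on 1 of 2 and open points groups detected on neither. The Dio1 and Hsd3b4 points of untreated KO lie between those of WT and 3 days, whereas Krt23 and Wfdc2 are detected in untreated KO as well as after 3 days.

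For every named call, at least 1 array could not be left out without losing it, while the differences kept their direction. The Dio1 call was lost only without a 3-day array. Krt23 missed the threshold when any 1 of the 8 arrays was left out (adjusted p from 0.053 to 0.099, limma). Fgf21 missed it for 7 of the 8 arrays (up to 0.17), Plin3 for 6 (up to 0.14), Wfdc2 for 6 (up to 0.13) and Hsd3b4 for 5 (up to 0.10). WT replicate 1 and both 3-day and 4-week arrays were among these for each gene. The Plin3 difference stayed between 1.77 and 2.07 log2 units and the Wfdc2 difference between 1.82 and 2.88. Without 3-day replicate 1 or 2, the Krt23 difference was 2.22 or 3.84, the first below its floored fold, and that of Hsd3b4 was -6.66 or -9.32. The Fgf21 difference was -4.09 without WT replicate 1, -6.55 without WT replicate 2, and -6.07 or -4.29 without 3-day replicate 1 or 2. Leaving out a 4-week array lost these 5 calls with little change in the differences, such as -7.96 for Hsd3b4 without replicate 1. Pdxp and Tcte3 missed it only without a 3-day array, with adjusted p up to 0.096 and 0.084. 4930433I11Rik, which lay outside the probes described, was detected on 1 WT and 1 3-day array and differed by -1.89 ± 0.24 (SE, adjusted p = 0.021, limma). It was at 8.47 and 7.94 in WT, and it missed the threshold without 3-day replicate 1 or either 4-week array (adjusted p up to 0.093, limma).

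Other genes of carbohydrate and fat metabolism did not pass. G6pc, the glucose-6-phosphatase that lets hepatocytes release glucose, was at 16.15 and 15.76 in WT and at 14.69 and 13.92 after 3 days. All WT values lay above all 3-day values, with a difference of -1.65 ± 0.36 (SE, adjusted p = 0.055, limma). Aldh3a2, which oxidises fatty aldehydes, differed by 0.75 ± 0.20 (SE, adjusted p = 0.082). Slc47a1, an exporter of organic cations into bile, differed by 0.71 ± 0.20 (SE, adjusted p = 0.091). Sult5a1, a sulfotransferase, differed by -1.64 ± 0.56 (SE, adjusted p = 0.14). Pemt, which makes phosphatidylcholine by methylation, differed by 0.38 ± 0.19 (SE, adjusted p = 0.26), from 15.19 and 15.28 in WT to 15.57 and 15.66. Mup1 differed by 0.16 ± 0.30. Of the 15 named probes grouped by hand as liver metabolism, with the results known, 2 rose, 3 fell and 10 did not pass, beside 5.78% past the threshold over all tested probes.

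Transcription factors were grouped by hand with signalling genes after the names were seen. The 19 probes gave 0 calls (limma), beside 5.78% of all tested probes, and 4 had an unadjusted p under 0.05, beside 26.64%. Jun, an AP-1 subunit, was at 11.70 and 11.07 in WT and at 12.93 and 12.63 after 3 days. The difference was 1.39 ± 0.29 (SE, adjusted p = 0.052, limma), and untreated KO was as high at 12.94 and 12.48. The 4-week arrays were back near WT at 11.16 and 11.23. Cebpb, a C/EBP factor of hepatocytes, was measured by a pair of probes. Its dimmer probe read 13.02 and 13.60 in WT, 11.89 and 11.95 in untreated KO and 13.59 and 13.37 after 3 days. The 3-day arrays overlapped WT and lay above untreated KO, by 1.56 ± 0.25 (SE, adjusted p = 0.082, limma). The brighter probe differed from untreated KO by 1.45 ± 0.27 (SE, adjusted p = 0.10) and from WT by 0.14 ± 0.27. Foxn3, a forkhead repressor, differed from WT by -1.06 ± 0.26 (SE, adjusted p = 0.071), and Paqr9, a membrane receptor family member, by -2.25 ± 0.63 (SE, adjusted p = 0.090).

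**Figure D5:**
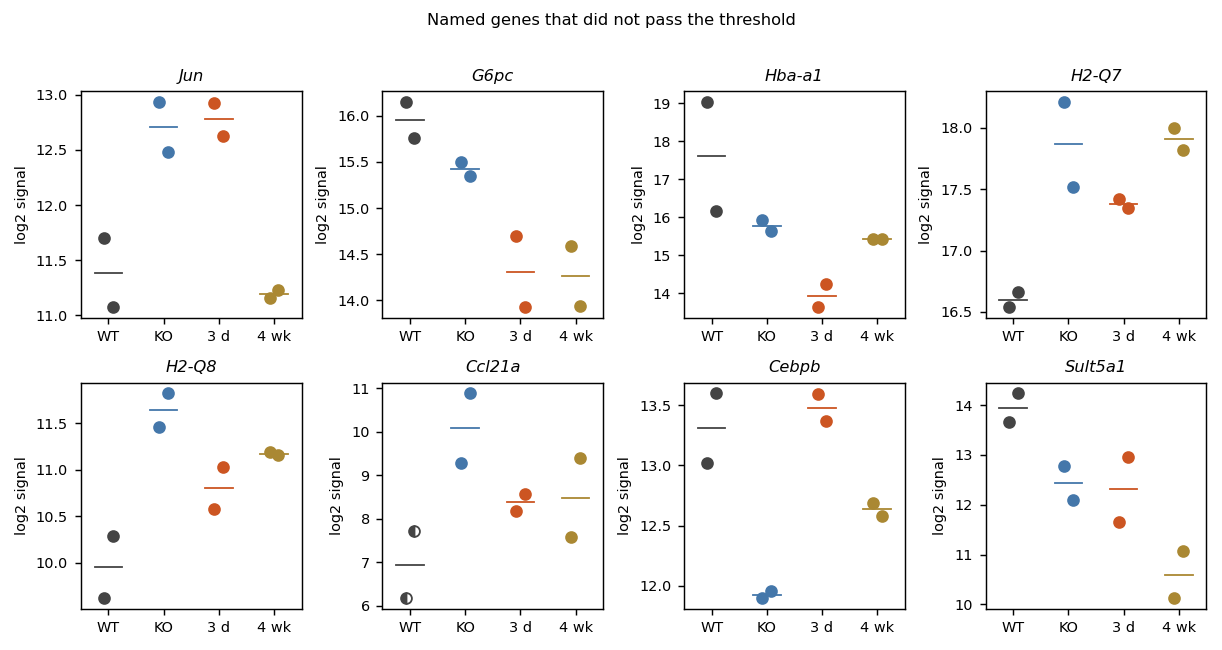
Log2 signal of 8 named genes that did not pass the threshold, drawn as in the plot of the genes that did; the Cebpb panel shows its dimmer probe. Jun is as high after 3 days as in untreated KO, Cebpb overlaps WT and lies above untreated KO, and 1 WT array of Hba-a1 reaches 19.04.

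The 11 immune probes were grouped by hand after the names were seen. None passed (limma), beside 5.78% of all tested probes, while 7 had an unadjusted p under 0.05, beside 26.64%. Of these, Grap, H2-Q7 and H2-Q8 lay higher, and Lst1, Ccl19, Ifi202b and Tnfsf13 lower. The class I histocompatibility genes H2-Q7 and H2-Q8, whose paralogs share sequence, differed from WT by 0.78 ± 0.27 (SE, adjusted p = 0.14) and 0.85 ± 0.31 (SE, adjusted p = 0.15). H2-Q7 was at 16.54 and 16.66 in WT and at 17.42 and 17.35 after 3 days. Grap, an adaptor of lymphocyte receptor signalling, differed by 1.61 ± 0.46 (SE, adjusted p = 0.097). Lst1, a gene of myeloid cells, was detected on 1 of the 2 3-day arrays and differed by -1.24 ± 0.35 (SE, adjusted p = 0.090). Ccl19, a chemokine of lymphoid tissue, differed by -0.59 ± 0.18 (SE, adjusted p = 0.11), a sign that turned on the control spot scaling. The neutrophil list gave Bcl2a1b alone, at 1.06 ± 0.55 (SE, adjusted p = 0.28), and the endothelial list Ccl21a alone, at 1.44 ± 0.86 (SE, adjusted p = 0.34). A Ccl21b probe among those described differed by 0.10 ± 1.17 (SE), and another outside them by 1.75 ± 0.84 (SE). Lists of stellate cells, macrophages, lymphocytes, bile acid genes, cell cycle and stress genes had no named probe. Against untreated KO, the 3-day difference was -0.49 for H2-Q7, -0.84 for H2-Q8, 0.44 for Grap and -0.89 for Lst1. It was -0.60 for Ccl19, -0.77 for Bcl2a1b and -1.71 for Ccl21a, and none of these passed (limma).

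Blood content was read from Hba-a1, an alpha globin chain. It was at 19.04 and 16.17 in WT, 15.93 and 15.63 in untreated KO and 13.63 and 14.24 after 3 days. WT replicate 1 stood well above the rest. The difference was -3.67 ± 0.87 (SE, adjusted p = 0.066, limma), and its part in other differences from WT was not tested.

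Further named probes differed from WT without passing. Wars2, the mitochondrial tryptophan tRNA ligase, was undetected in WT at 6.30 and 7.08 and read 8.38 and 8.33 after 3 days (adjusted p = 0.065, limma). Trmt61a, a tRNA methyltransferase subunit, differed by 2.13 ± 0.70 (SE, adjusted p = 0.12). Lgals7, a galectin of stratified epithelia, was undetected in WT and differed by 1.40 ± 0.34 (SE, adjusted p = 0.070). The guidance factor Ntn1 differed by -0.66 ± 0.23 (SE, adjusted p = 0.15), the peptidase Dpp9 by -0.98 ± 0.22 (SE, adjusted p = 0.057) and the ubiquitin ligase Rnf169 by -1.07 ± 0.28 (SE, adjusted p = 0.083). Wdfy1, an endosomal adaptor, differed by 0.79 ± 0.26. Teddm1a and Tceal9 differed by -0.62 ± 0.17 and -0.69 ± 0.23. The signs of Ntn1, Teddm1a and Tceal9 turned on the control spot scaling. Among all 132, 18 lay higher and 20 lower at an unadjusted p under 0.05, a share near the 4457 of 16728 (26.64%) over all tested probes.

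The next question was whether any gene differed between 3 days of norUDCA and no treatment within the knockout. Over the 16728 probes, 39 passed (0.233%), 27 higher and 12 lower, and 0 were named (limma). At an unadjusted p under 0.05 there were 2685 probes, among them 27 of the 132 named ones, 10 higher and 17 lower. Dio1 came nearest with its adjusted p of 0.053. Leaving out either untreated KO array, either 3-day array or either 4-week array gave 0 calls, with the unadjusted counts between 1742 and 2579. The 3-day arrays serve in both comparisons, so these counts are not independent of those against WT.

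Of the probes without a gene name, the pair with the largest rise and the pair with the largest fall are given. mCG129934.1, an identifier of the array's design, was at 9.79 and 10.89 in WT, 14.55 and 14.21 in untreated KO and 17.47 and 17.51 after 3 days. It rose by 7.15 ± 0.38 log2 units (SE), or 142.1-fold (adjusted p = 0.0043, limma). mCG129928.1 rose by 7.03 ± 0.37 (SE) and was within 0.26 of it on every array. Whether these probes read separate transcripts is not settled by the files. Downward, mCG10287 differed by -6.17 ± 0.70 (SE, adjusted p = 0.016), from 15.82 and 15.46 in WT to 9.16 and 9.77. mCG20398.1 differed by -7.60 ± 1.01 (SE, adjusted p = 0.023) and was detected on 1 of the 2 3-day arrays. Untreated KO was at 14.20 and 12.15 for mCG10287 and at 13.59 and 10.71 for mCG20398.1.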

How the data were processed

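Per the labels, RNA was reverse transcribed from oligo(dT) with a digoxigenin label. Per the file headers, each deposited scanner file gives a signal intensity, its noise, a signal over noise score and flags. The image software is not given in the sources used here. The signal is linear, and a spot with no signal is listed at its own noise: 55689 of 132048 gene spots on the 4 arrays. The deposited table of the series holds the assay-normalized intensity and was used as an alternative.

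The log2 signals were then brought to a shared distribution over arrays (quantile normalization). Differences were fitted with limma 3.58.1 in R 4.3.3 on all 8 arrays in 4 groups, two-sided, with Benjamini-Hochberg adjustment over the tested probes and a threshold of 0.05. SE is the moderated standard error. The fit was tested on simulated data. No scale of depth exists for arrays, and their number limits the precision.

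Groups came from titles. File names of the 4-week group carry another length, and the labels were used. Names came from RefSeq accessions (311 probes) or synonyms (5) in a GRCm38.p6 gene table, and 206 RefSeq accessions had no match. Named genes were those past the threshold, the next by unadjusted p up to 30, and all members of 20 gene lists. The genes compared and the lists were chosen with earlier results of these data known, and the role groups after names were seen. Alternatives covered scaling, filters, the fit and leaving out each array.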

Additional observations from a re-analysis of the deposited data

Results flagged for a closer look

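The positive control spots, which enter no comparison of genes, were brighter on the 3-day arrays: the dimmer 3-day array had 2.96 times the median of the brighter WT array. The hybridization controls gave 0.98 and the 3 reverse transcription controls 0.90, 0.80 and 0.84 for the same ratio. What set the positive controls apart was not tested.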

How the results depend on the processing

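Probes that rose from WT to 3 days, 599 as reported, numbered 1042 with arrays scaled to a common median, 397 with cyclic loess, 123 with no filter on dim probes, 1067 when detection on both arrays of a compared group was required, 1350 with a trended prior, 325 with array weights and 4528 on the reverse transcription control spots. Leaving out 1 array gave 3 to 1342. Probes that fell, 368 as reported, numbered 190, 80, 690, 886, 173 and 200 in these settings except loess, 908 with detection on all 8 arrays, and 0 to 468 without 1 array. Array weights and control spot scaling were chosen after the data were seen. A fit on the compared groups alone gave 0 calls in either direction, with 3474 probes at an unadjusted p under 0.05.

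Probes that differed between 3 days and untreated KO, 39 as reported, numbered 90 with median scaling, 3 on the assay-normalized intensity, 131 with an offset of 50, 0 with no dim filter (3355 unadjusted), 626 with detection on all 8 arrays, 181 with detection on both arrays of a group, 677 with a trended prior, 93 with array weights, 10 on the control spots, 0 with the compared groups alone (2617 unadjusted) and 0 to 45 without 1 array. Named probes past the threshold against WT, 9 as reported, numbered 3 with no dim filter, 14 and 17 with the detection filters, 22 with a trended prior, 46 on the control spots, 0 with the compared groups alone and 0 to 16 without 1 array.

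The replicate numbers did not pair the arrays: deviations of WT and 3-day arrays with the same number correlated at -0.016. With a replicate block, 163 probes rose, 98 fell, 0 differed from untreated KO (2486 unadjusted) and 4 named probes passed.

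No named gene past the threshold changed direction in any alternative that tested it, which for Tcte3, Pdxp, Krt23 and Wfdc2 was fixed by their detection class. Signs turned for genes that had not passed. On the control spots, Teddm1a differed by 0.27, Ccl19 by 0.24, Tceal9 by 0.24 and Ntn1 by 0.30. On the assay-normalized intensity the dimmer Cebpb probe differed by -0.0093 and Olfr982 by -0.19. With cyclic loess Mup1 differed by -0.28 and Olfr982 by -0.020. Without 1 array, Mup1 ran from -0.15 to 0.42, Olfr982 from -0.13 to 0.14, the dimmer Cebpb probe from -0.12 to 0.46 and the brighter from -0.21 to 0.47. The cause was not tested. Spots that no array of a group detected give only a bound, and 2 arrays a group limit every value.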
